A study of Caenorhabditis elegans with 2 samples.

Results

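The NHR-76 candidate peaks described here lie in distal intergenic sequence, far from annotated gene starts, and are the stronger ones of their kind. They were chosen by their signal and their position. From the authors' list of candidates called on the pooled replicates, in coordinates of the ce11 assembly, nuclear peaks were kept when their signal value was 6 or more. The summit also had to lie inside no protein-coding gene, more than 1000 bp from the 5′ end of any protein-coding transcript, and more than 500 bp from any tRNA, snoRNA, ncRNA or piRNA gene. Of the 30000 pooled candidates, 29979 were nuclear, 6558 of these had a signal of 6 or more, and 854 met every condition. The signal value is the authors' own value for each peak, and neither what it measures nor its scale is given in the sources used here.

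NHR-76 binding had been profiled by chromatin immunoprecipitation with sequencing (ChIP-seq) in Caenorhabditis elegans, in 2 biological replicates of 1 group. Both replicates came from strain OP203, which carries the unc-119(ed3) mutation on chromosome III and the integrated transgene wgIs203, a source of NHR-76 with GFP and FLAG fused to its C terminus. Whole embryos of mixed stages and both sexes were sheared by sonication, and the labels name nhr-76 as the antibody target. The transgene adds copies of nhr-76 to those in the genome, whole animals mix every embryonic tissue, and the control alignment behind the peak lists is not described in the sources used here. No read numbers come with the lists, so the depth is unknown.

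NHR-76 is a nuclear hormone receptor, one of a large family in worm, and is known for its part in the control of fat stores in the intestine. Receptors of this family bind short hexamer half-sites in DNA through a pair of zinc fingers. In the compact worm genome, regulatory sequence usually lies close to the gene it serves. A well-known use of sequence far from gene starts is on the X chromosome: in XX embryos the dosage compensation complex is recruited to X at sites with a 12-letter motif enriched on that chromosome, from which it spreads and lowers X transcription.

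The windows of 6 members on X are printed first, because they are among the strongest distal members and show the dosage compensation motif. The K02D3.1 member, the strongest of all, is added as the one window in this set without a site. It is not the only strong member on X without one. The hda-4, F52G3.1 and ZK899.6 members came no closer to the motif than 4, 5 and 3 mismatches. Members take their names from protein-coding genes, each from the gene whose 5′ end is closest. Each window holds the 201 bases centred on the summit, read 5′ to 3′ on the plus strand of the RefSeq sequence of WBcel235, which is the ce11 assembly. Capitals mark the best match to the 12-letter motif, on either strand and with at most 2 mismatches. They also mark the 9-letter run CAATCAATA on either strand.
K02D3.1, chrX:13700782-13700982: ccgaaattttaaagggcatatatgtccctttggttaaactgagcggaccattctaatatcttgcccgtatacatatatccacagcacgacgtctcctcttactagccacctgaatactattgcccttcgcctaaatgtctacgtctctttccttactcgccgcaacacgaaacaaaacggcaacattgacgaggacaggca
F55G7.5, chrX:11937428-11937628: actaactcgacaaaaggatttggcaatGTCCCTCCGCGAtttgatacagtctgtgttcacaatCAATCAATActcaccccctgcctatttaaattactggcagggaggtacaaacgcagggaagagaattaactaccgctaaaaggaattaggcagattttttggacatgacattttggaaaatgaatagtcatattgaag
W02H3.3, chrX:11094096-11094296: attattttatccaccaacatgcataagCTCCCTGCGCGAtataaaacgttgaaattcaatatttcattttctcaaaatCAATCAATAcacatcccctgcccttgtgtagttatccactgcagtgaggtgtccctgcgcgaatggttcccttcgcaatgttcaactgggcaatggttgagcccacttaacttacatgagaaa
F22H10.2, chrX:16681991-16682191: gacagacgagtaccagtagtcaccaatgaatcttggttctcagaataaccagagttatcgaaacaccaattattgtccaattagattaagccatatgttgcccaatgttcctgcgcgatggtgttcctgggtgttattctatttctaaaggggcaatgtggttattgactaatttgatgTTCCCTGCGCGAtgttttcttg
gtr-1, chrX:806611-806811: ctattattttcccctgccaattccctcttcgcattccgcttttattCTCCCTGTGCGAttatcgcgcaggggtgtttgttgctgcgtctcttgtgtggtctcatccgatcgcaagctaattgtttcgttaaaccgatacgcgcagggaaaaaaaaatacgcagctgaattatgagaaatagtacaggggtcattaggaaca
F20B6.9, chrX:4209170-4209370: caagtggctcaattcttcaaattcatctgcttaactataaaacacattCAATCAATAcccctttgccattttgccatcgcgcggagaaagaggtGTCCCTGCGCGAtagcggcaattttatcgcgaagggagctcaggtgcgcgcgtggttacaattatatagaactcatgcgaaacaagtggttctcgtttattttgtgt
fbxb-58, chrX:1626988-1627188: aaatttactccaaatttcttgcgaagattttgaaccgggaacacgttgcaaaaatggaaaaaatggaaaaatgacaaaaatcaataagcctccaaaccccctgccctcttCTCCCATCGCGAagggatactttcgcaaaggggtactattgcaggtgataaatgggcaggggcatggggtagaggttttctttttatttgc

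The motif was searched as TCGCGCAG followed directly by GGAG, on both strands. The W02H3.3 window held it with 0 mismatches, and the F22H10.2, gtr-1 and F20B6.9 windows with 1. The F55G7.5 and fbxb-58 windows had 2 mismatches. In F55G7.5, W02H3.3 and F20B6.9 the 9-letter run stood in the same window as the motif. The K02D3.1 window came no closer to the motif than 5 mismatches.

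Another kind of sequence among the strongest members is simple repeats. 3 windows are shown here to let the composition be read directly, with capitals on every tandem repeat, meaning 12 or more bases built from a unit of 1 to 6 bases.
Y39E4B.6, chrIII:13068400-13068600: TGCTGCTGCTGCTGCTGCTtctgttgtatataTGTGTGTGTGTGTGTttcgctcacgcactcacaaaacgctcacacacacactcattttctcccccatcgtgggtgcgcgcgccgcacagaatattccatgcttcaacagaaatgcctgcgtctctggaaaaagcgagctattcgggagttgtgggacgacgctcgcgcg
hda-4, chrX:16726946-16727146: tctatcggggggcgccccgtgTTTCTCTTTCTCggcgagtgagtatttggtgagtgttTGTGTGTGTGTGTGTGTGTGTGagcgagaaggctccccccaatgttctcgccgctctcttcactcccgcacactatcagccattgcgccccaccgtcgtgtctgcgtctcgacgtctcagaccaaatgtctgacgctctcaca
din-1, chrII:11635930-11636130: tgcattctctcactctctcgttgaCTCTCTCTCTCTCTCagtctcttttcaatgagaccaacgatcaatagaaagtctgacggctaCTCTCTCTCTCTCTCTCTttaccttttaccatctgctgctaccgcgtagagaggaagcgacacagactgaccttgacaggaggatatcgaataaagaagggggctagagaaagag

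The repeats covered 16.9% of the Y39E4B.6 and hda-4 windows and 16.4% of the din-1 window. The din-1 window runs through CT units, and the Y39E4B.6 window through TGC and TG units. Y39E4B.6 lies on chromosome III, hda-4, a histone deacetylase gene, on X, and din-1, which encodes a corepressor known to act with the nuclear receptor DAF-12, on chromosome II.

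Signal among the 854 members ran from 6.00 to 42.3, with a median of 7.22. The 25th percentile was 6.49, the 75th 8.60 and the 90th 10.5, so most members sat close to the threshold and a few stood far above it. All 854 intervals were 340 bp wide. Since the threshold itself chose the members, these values describe them and support nothing. Just inside the threshold were the members at smp-1, a semaphorin gene, with 6.004, at smap-1 with 6.002 and at B0563.6 with 6.0003. Just outside were candidates at W09G3.1 with 5.9996, best-22 with 5.995 and str-233 with 5.992, so no step in signal marks the threshold.

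The strongest member, at K02D3.1, lay on X at 13700712 to 13701051, 6025 bp upstream of the nearest 5′ end, and had a pooled signal of 42.3. Its signal was 8.32 in the replicate 1 list and 34.6 in the replicate 2 list. It ranked 27 in the pooled list, 79 in replicate 1 and 26 in replicate 2, and so stood near the top of each. The F55G7.5 member, at 11937358 to 11937697 on X, followed with 36.5 in the pooled list. Replicate 2 listed it at 28.4 and rank 40, whereas replicate 1 gave it 3.08 and rank 2731. The lists hold 30000 and 7516 peaks, so these ranks place the member within each list only.

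The W02H3.3 member, at 11094026 to 11094365 on X, had a pooled signal of 27.1, with 7.54 at rank 104 in replicate 1 and 20.01 at rank 73 in replicate 2. It sat between the convergent genes W04G3.11 and W02H3.3. The F22H10.2 member, at 16681921 to 16682260 on X, had 24.2 pooled and 23.0 in replicate 2, and replicate 1 listed no peak there. The gtr-1 member, at 806541 to 806880, was listed in both replicates. It had 19.6 pooled, 9.38 at rank 60 in replicate 1 and 9.32 at rank 881 in replicate 2. The F20B6.9 member, at 4209100 to 4209439, had 15.3 pooled, 6.47 at rank 171 in replicate 1 and 6.96 at rank 2843 in replicate 2. For both of these the values in the replicate lists are each on the scale of their own list and are not compared. The lists differ in length (7516 and 30000 peaks), so their ranks are not compared either.

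On chromosome III, the members at Y39E4B.6 (13068330 to 13068669) and F54F12.1 (13062539 to 13062878) shared 1 intergenic gap of 15313 bp between those divergent genes. Their pooled signals were 24.96 and 22.8. The zer-1 member, near the gene of a ubiquitin ligase substrate receptor, reached 23.5 at 887832 to 888171. Replicate 1 listed these 3 at 5.47, 4.82 and 3.89, and replicate 2 at 19.6, 18.2 and 21.9, so all had lower values in replicate 1, each on the scale of its own list. On X, the hda-4 member (16726876 to 16727215) had 24.4 and the F52G3.1 member (16961467 to 16961806) 20.4. The chd-7 member, at 4701268 to 4701607 on chromosome I, had 20.2, and its summit lay inside the long intergenic noncoding RNA gene linc-91. chd-7 encodes a chromodomain helicase.

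**Figure D1:**
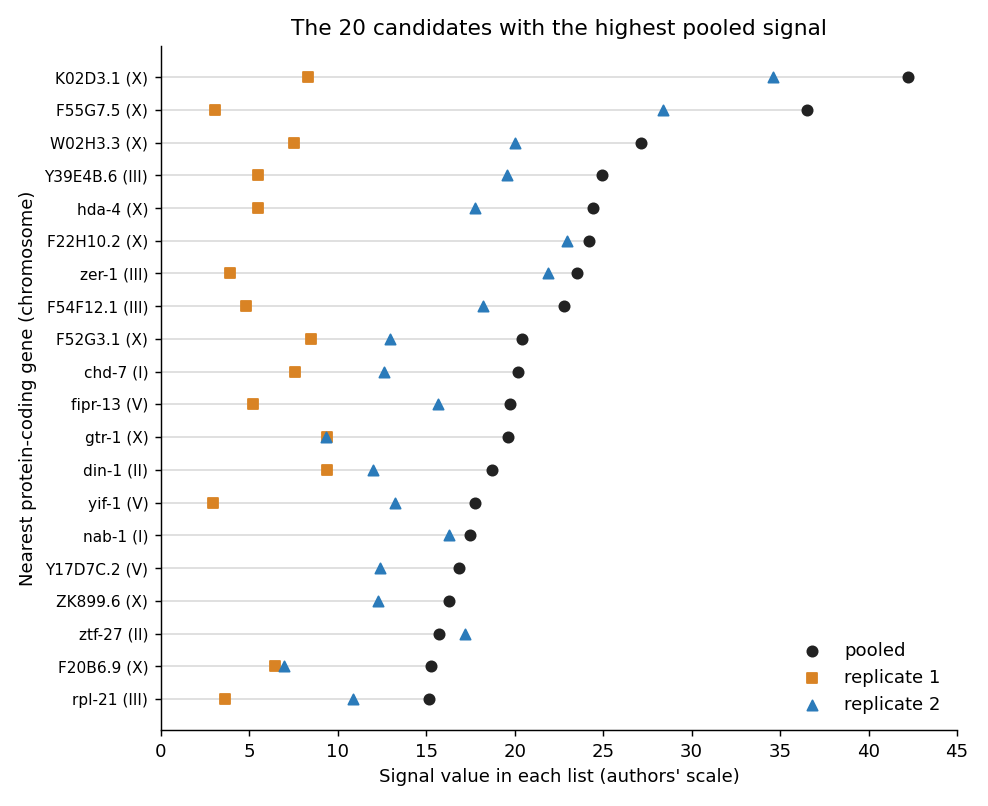
Signal values of the 20 members with the highest pooled signal, by nearest protein-coding gene and chromosome, in the pooled list (circles), in replicate 1 (squares) and in replicate 2 (triangles). A missing symbol means that the replicate listed no overlapping peak, and values on the different lists are each on the scale of their own list. 15 of the 20 were listed in replicate 1 and all 20 in replicate 2.

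The plot of the 20 strongest members by list shows replicate 2 close to the pooled value for most of them and replicate 1 well to the left. The signal of each list is set by that list, so the distance between symbols is not a difference in binding. The rest of the 20 were at fipr-13 (19.8) and yif-1 (17.8), which shared a gap of 9607 bp on chromosome V, at din-1 (18.7), at the neurabin gene nab-1 (17.5), at Y17D7C.2 (16.8), at ZK899.6 (16.3), at ztf-27 (15.7) and at the ribosomal protein gene rpl-21 (15.1). Replicate 1 listed no peak at nab-1, Y17D7C.2, ZK899.6 or ztf-27. The Y17D7C.2 member lay 96 bp from an annotated pseudogene.

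Of the 854 members, 215 (25.2%, 95% exact Clopper-Pearson interval 22.3% to 28.2%) overlapped a peak listed in replicate 1, against a background of 16.7% of all nuclear candidates. In replicate 2, 788 members (92.3%, 90.3% to 94.0%) did, against a background of 69.2%. Only 10 members (1.17%, 0.563% to 2.14%) overlapped a peak of the authors' final list, made by the irreproducible discovery rate procedure, against a background of 0.447%. These 10 were the 10 strongest members, and 6 of them lay on X. The pooled signal that chose the members holds the same reads, so nothing is read from these shares. The replicate lists also differ in length, with 7516 peaks in replicate 1 and 30000 in replicate 2. Both replicates listed 176 members (20.6%) and neither listed 27 (3.16%). Of candidates with a signal of 6 or more, both listed 28.7% at promoters and 20.6% in introns, and neither listed 3.50% and 5.13%. For distal candidates with a signal under 6 the shares were 4.44% and 29.1%. The shares over all nuclear candidates were not computed. The intervals treat peaks as independent and cover counting error only.

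Among members with a signal of 6 to 7, replicate 1 listed 16.2% of 370. The share was 26.3% of 194 at 7 to 8, 27.2% of 180 at 8 to 10, 44.4% of 90 at 10 to 15 and 75% of 20 at 15 or more. The bins are of the pooled signal, which holds the reads of replicate 1, so these shares are a description. Of the same-signal classes, 34.3% of 1773 promoter candidates, within 500 bp of a 5′ end, and 26.4% of 780 intron candidates were listed in replicate 1. The final list held 53 of the promoter candidates (2.99%) and 6 of the intron candidates.

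Sequence was compared in 3 ways, each over 20 features and each with Fisher's exact test, two-sided, adjusted by Benjamini-Hochberg over the 20. The members were set against the 3873 distal candidates with a signal under 6, against the 1773 promoter candidates and against the 780 intron candidates, the last 2 with signals of 6 or more. The tests take each peak as a unit although peaks of 1 experiment, and neighbours on a chromosome, are not independent. The adjusted p-values therefore rest on an independence that these peaks lack and may be too small. They do not measure the spread between replicates.

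Against weaker distal candidates, the members were richer in G and C. A GC content of 40% or more was found in 398 members (46.6%, 43.2% to 50.02%) and in 1051 weaker candidates (27.1%, 25.7% to 28.6%), an odds ratio of 2.34 (Fisher's exact test, adjusted p = 3.96e-26). The median GC content was 39.6% in members and 35.8% in weaker candidates, against 39.8% at promoters and 39.8% in introns. The members' median thus lay close to those of the other strong classes. By Fisher's exact test the odds ratios for that threshold were 0.89 against promoters (adjusted p = 0.362) and 0.91 against introns (adjusted p = 0.745), neither past the threshold of 0.05.

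Within the distal class the share of GC-rich windows was larger where the signal was higher. It was 25% below a signal of 4, 33.4% at 5 to 6, 42.4% at 6 to 7, 40.2% at 7 to 8, 46.7% at 8 to 10, 70.0% at 10 to 15 and 80% of the 20 members at 15 or more. The call against weaker candidates was lost without replicate 2. In replicate 1 alone the odds ratio was 1.57 (Fisher's exact test, adjusted p = 0.282), where the 905 distal members could be set against only 162 weaker candidates. In replicate 2 alone all 4 calls were made again. Leaving out a replicate also changes the regions: 492 of the 876 members in replicate 2 alone were members in the pooled list, and 196 of the 905 in replicate 1 alone.

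**Figure D2:**
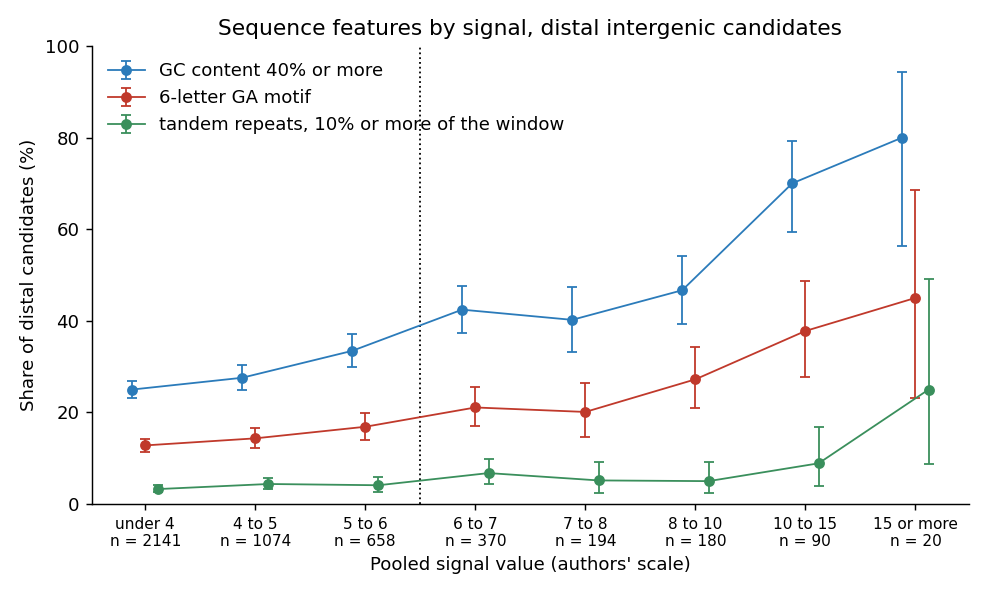
Share of distal intergenic candidates with each sequence feature, by pooled signal, with 95% exact intervals over peaks. The dotted line is the signal of 6, members lie to its right, and tandem repeats here take up 10% or more of the window. The share at a GC content of 40% or more is 25% in the lowest bin and 80% in the highest.

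GA repeats were more frequent in the members. GA-rich sequence is known in worm as the binding sequence of factors such as the zinc finger protein EOR-1. The motif GAGAGA, searched on both strands, was found in 209 members (24.5%, 21.6% to 27.5%) and in 539 weaker candidates (13.9%), an odds ratio of 2.00 (Fisher's exact test, adjusted p = 2.71e-12). It overlaps the tandem repeats by construction. In windows with tandem repeats under 10%, it was still found in 182 of 797 members (22.8%) and 503 of 3729 weaker candidates (13.5%). Promoter candidates had it in 22.1% (exact test, adjusted p = 0.362) and intron candidates in 19.2% (adjusted p = 0.0767). Within candidates of 30% to 40% GC, 386 of them members, the odds ratio against weaker candidates was 1.24 (exact test, adjusted p = 0.478). In replicate 1 alone it was 1.11 (exact test, adjusted p = 1.00), so the call did not hold there either.

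Tandem repeats took up 10% or more of the window in 57 members (6.67%, 5.09% to 8.56%), in 144 weaker candidates (3.72%; odds ratio 1.85, adjusted p = 0.00157 by Fisher's exact test) and in 3.95% of promoter candidates (odds ratio 1.74, adjusted p = 0.0170). Among introns the share was 8.59%, and the odds ratio of 0.76 had an adjusted p of 0.357. The call against weaker candidates was lost under 5 of 13 alternatives, with odds ratios from 1.20 to 3.16. Against promoters it was lost under 2 of 12 alternatives and turned in direction under 2 more, the 30% to 40% GC band (odds ratio 0.93) and X alone (0.88). Of the 20 strongest members 5 had such repeats, and 9 had the GAGAGA motif.

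The half-sites of nuclear receptors showed no difference past the threshold. AGGTCA was found in 52 members (6.09%) against 6.51% of weaker candidates, and AAGTCA in 84 (9.84%) against 9.63% (exact test, adjusted p = 0.998 for AGGTCA). The GATA factor motif TGATAA, bound in intestine by ELT-2, was found in 139 members (16.3%) against 17.8% (exact test, adjusted p = 0.594). These matches are letters in a window and say nothing of binding. Of the other motifs searched, TTGGTCAG was found in 7 members, TGACTCA in 13, CACGTG in 31, TTAGGCTTA in 4, GGTTCGA in 11 and TGGCNNAG in 50. None of these passed the threshold in any of the 3 comparisons.

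The dosage compensation motif was rare among the members. The 8-letter core TCGCGCAG was found in 5 members (0.585%, 0.19% to 1.36%) and 7 weaker candidates (0.181%), an odds ratio of 3.25 (exact test, adjusted p = 0.198). In the promoter class 0.169% had it, and 0.513% of introns. Of the 5 members 4 lay on X, at W02H3.3, F22H10.2, gtr-1 and F20B6.9, and these 4 were among the 20 strongest. The fifth, at tppp-1, had a signal of 6.87, below the median of all members. On X alone the core was found in 4 of 200 members (2%), 3 of 954 weaker candidates (0.314%), 0 of 257 promoter candidates and 3 of 155 intron candidates (1.94%), so the share in members was close to that in introns. The exact test against weaker candidates did not pass the threshold under 10 of 13 alternatives, among them the GC band of 30% to 40%, where no member had the core and the odds ratio was 0. The exact test passed under 3, in windows of 50 bp on each side (11.4, adjusted p = 0.0145), at a signal of 8 or more (7.74, adjusted p = 0.0232) and at 10 or more (21.7, adjusted p = 0.000793). The last 2 raise the value that chose the members, so they describe the strongest members and support nothing. Against introns the exact test did not pass in any alternative run, and at a signal of 10 or more the odds ratio was 0.88 (adjusted p = 1.00).

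The full 12-letter motif with at most 2 mismatches was chosen for description after these values had been seen, so no test is attached. It was found in 9 of 200 members on X (4.50%, 2.08% to 8.37%) and in 1 of 654 on the autosomes (0.153%). Among weaker distal candidates it was found in 2 of 954 on X (0.210%) and 10 of 2919 on autosomes. Promoter candidates had it in 3 of 257 on X (1.17%, 0.241% to 3.37%) and 10 of 1516 on autosomes. Intron candidates had it in 2 of 155 on X (1.29%, 0.157% to 4.58%) and 3 of 625 on autosomes. On X the intervals of promoter and intron candidates overlap that of the members. The 9 on X had signals from 9.27 to 36.5, and the median of all X members was 7.18. Signal chose the members and the form of the motif was set after their values were seen, so these signals support nothing. Besides the printed windows, the members with a site on X were at sedl-1 (10.2), at tps-1, a trehalose phosphate synthase gene (10.9), and at F20B6.9 again (9.27). The single autosomal member was at ubc-8 on chromosome IV, with 6.87. Replicate 1 listed 8 of the 10 and replicate 2 listed 9. Of all members, replicate 1 listed 25.2% and replicate 2 92.3%, and of all nuclear candidates 16.7% and 69.2%. The pooled signal holds the same reads, so nothing is read from these counts.

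**Figure D3:**
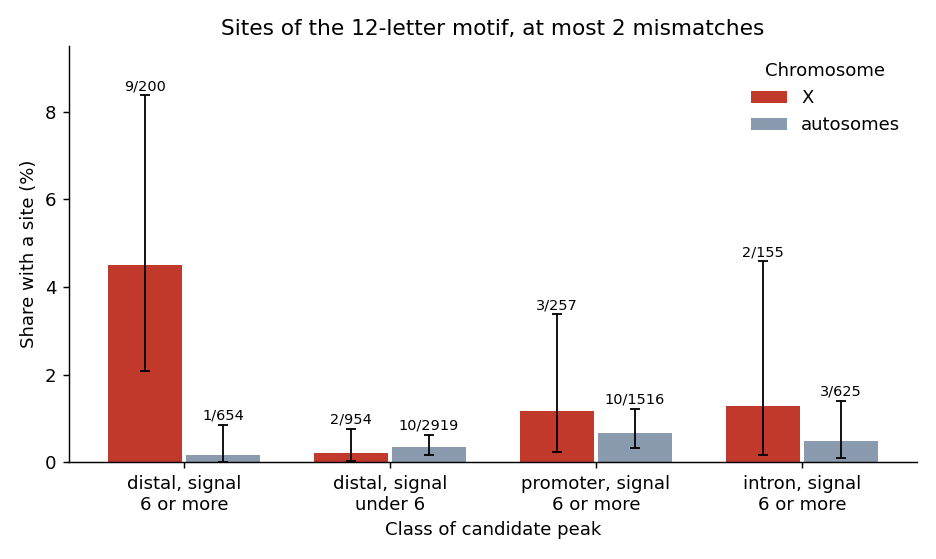
Share of candidates with a site of the 12-letter dosage compensation motif, at most 2 mismatches, by class and by chromosome, X or autosomes. Error bars are 95% exact intervals over peaks and the labels give sites over candidates. The members on X have the highest share, 9 of 200, with an interval that overlaps those of promoter and intron candidates on X. The form of the motif was set after the values were seen.

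The run CAATCAATA was read off the strongest windows after they had been seen, and is likewise a description. It was found in 6 of 200 members on X (3%) and 2 of 654 on autosomes (0.306%). The weaker distal candidates had it in 3 of 954 on X (0.314%) and 6 of 2919 on autosomes. Promoter candidates had it in 1 of 257 on X and 11 of 1516 on autosomes (0.726%), a larger share than among autosomal members, and intron candidates in 0 of 155 on X and 2 of 625 on autosomes. The 3 highest were F55G7.5, W02H3.3 and ZK899.6, followed by F20B6.9 with 15.3. ZK899.6 came no closer to the 12-letter motif than 3 mismatches, so its run stands without it. The remaining X members with the run were at mlck-1 (8.11) and Y7A5A.7 (6.46), and those on autosomes at H10E21.5 (11.1) and F53E2.2 (8.32).

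X held 200 of the 854 members (23.4%, 20.6% to 26.4%). That was more than among promoter candidates, where 257 of 1773 lay on X (14.5%; odds ratio 1.80, Fisher's exact test, adjusted p = 3.41e-07). The call held under each of 10 alternatives, with odds ratios from 1.68 to 2.67. Weaker distal candidates had 24.6% on X (exact test, adjusted p = 0.802) and intron candidates 19.9% (adjusted p = 0.265). Per megabase of chromosome, X carried 11.3 members, ahead of III with 9.5, II with 8.64, V with 8.55, I with 7.10 and IV with 6.00. Weaker distal candidates were also densest on X, with 53.8, against 27.1 on IV to 39.5 on II. Promoter and intron candidates were densest on III (22.6 and 10.95), and X had 14.5 and 8.75. The length of sequence that meets the position rule was not measured. Of the members ranked by signal, 6 of the first 10, 9 of the first 20, 15 of the first 50 and 27 of the first 100 lay on X. Signal chose the members, so these counts are a description. Of the members on X, 41.5% had a GC content of 40% or more, and the share on the autosomes ran from 45.8% on V to 50.8% on II. Among X candidates alone, which were looked at once these values were known, the odds ratio for that GC content against promoters was 0.51 by Fisher's exact test (adjusted p = 0.00659).

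**Figure D4:**
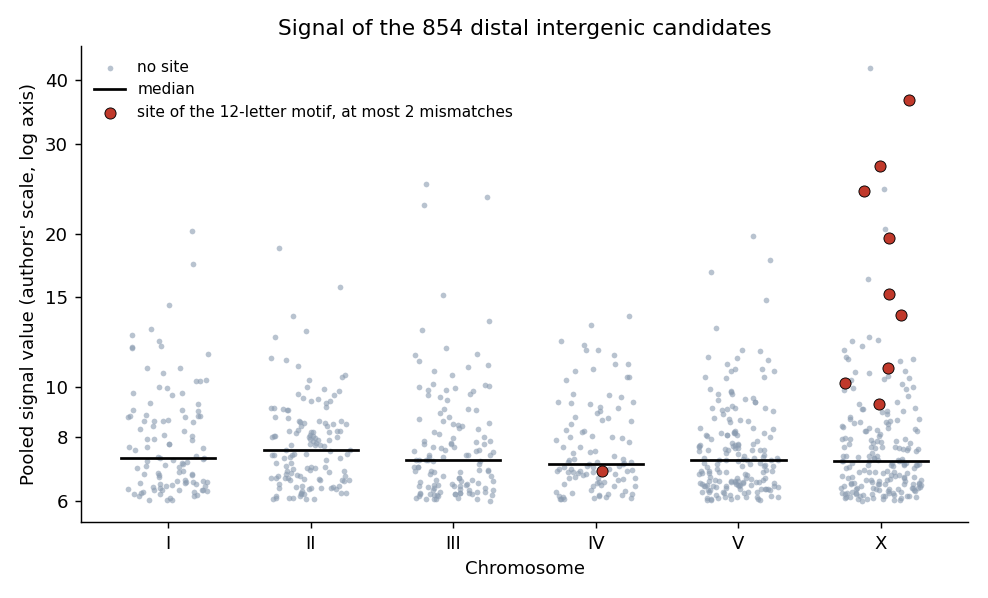
Pooled signal of the 854 members by chromosome, on a log axis, with points spread sideways and a line at the median. Dark red points have a site of the 12-letter motif with at most 2 mismatches. 9 of these 10 points are on X, and the medians of the chromosomes run from 7.09 to 7.53.

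In the plot of signal by chromosome the medians lie close together and the tops do not. The highest signal was 42.3 on X, 24.96 on III, 20.2 on I, 19.8 on V, 18.7 on II and 13.8 on IV. Chromosome arms, taken as the outer 25% at each end, held 49.6% of members, against 41.8% of promoter candidates (odds ratio 1.37, exact test, adjusted p = 0.00107). They held 50.1% of weaker distal candidates and 50.5% of intron candidates, neither a difference past the threshold. The call against promoters was lost under 3 of 10 alternatives, with odds ratios from 1.23 to 1.53. GAGAGA was most frequent in members of III (34.4%) and I (32.7%) and least in those of V (17.3%) and X (17.5%).

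The members lay 1004 to 18504 bp from the nearest protein-coding 5′ end, with a median of 2606.5 bp. Between 1 and 2 kb were 276 (32.3%), between 2 and 5 kb were 440 (51.5%), and 138 (16.2%) were farther away. The summit lay upstream of the nearest 5′ end in 618 members (72.4%) and in 69.0% of weaker distal candidates. The flanking genes pointed apart in 274 members (32.1%, against 30.8% of weaker candidates), ran the same way in 495 (58.0%, against 56.3%) and pointed at each other in 85 (9.95%, against 12.9%). These shares were close to those of the weaker candidates and were not tested. Another member lay within 2000 bp of 137 (16.0%).

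Pseudogenes were annotated within 500 bp of 97 members (11.4%), fewer than the 15.3% of weaker candidates (odds ratio 0.71, Fisher's exact test, adjusted p = 0.0135) and more than the 1.07% of promoter candidates (odds ratio 11.8, adjusted p = 6.85e-30) and 1.28% of introns (9.87, adjusted p = 3.04e-17). The rule allows pseudogenes and keeps members out of protein-coding genes and away from their 5′ ends, where intron and promoter candidates lie. The differences from promoters and introns are thus partly set by how the classes were chosen, and nothing is read from their p-values. Against weaker candidates the call was lost under 3 of 10 alternatives, and in replicate 1 alone the odds ratio was 1.10, the other way. Multi-copy windows, with another copy in the genome at 90% identity over 80% of the window, were found in 17 members (1.99%). The share was higher in weaker candidates, 3.15% (exact test, adjusted p = 0.205). It was lower at promoters, 0.959% (exact test, adjusted p = 0.146), and in introns, 0.769% (adjusted p = 0.187). None of these passed the threshold. The most copies were at Y49G5A.1, where 2 members had 79 and 28, then at lit-1, a Nemo-like kinase gene (33), at F14H12.2 (17) and at Y67D8C.6 (12). Their signals lay between 6.18 and 7.93. Of the 20 strongest members 0 were multi-copy, with an exact interval of 0% to 16.8%.

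Other noncoding genes lay within 500 bp of 20 members when pseudogenes are left aside. LincRNA or antisense RNA genes did so for 1.76% of members, 1.60% of weaker distal, 0.790% of promoter and 0.385% of intron candidates. For microRNA genes the shares were 0.468% of members and 0.361% of weaker candidates, and for snRNA or rRNA genes 0.117% and 0.129%. None of these features passed the threshold in any of the 3 comparisons. Of the 20 members, the strongest was the chd-7 member in linc-91. The snRNA gene W07G1.24 held the summit of the W07G1.1 member, with 10.6. Then came lincRNA genes, linc-105 (7.96), linc-47 (7.77), linc-129 at the calcium pump gene sca-1 (7.75), linc-29 (7.63), linc-146 at the proprotein convertase gene egl-3 (7.32) and linc-128 at the calmodulin gene cmd-1 (7.10). The first microRNA genes were cel-mir-2219 at srh-38 (7.36) and cel-mir-239a at rsd-3 (7.05). Apart from the first 2 these signals lay near the median of all members.

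The genes that name the members were sorted into 15 families, with no test. Nuclear hormone receptor genes named 17 members (1.99%), against 2.01% of weaker candidates, and nhr-76 itself named 1 of them. That member lay at 635477 to 635816 on chromosome IV, 8110 bp from the 5′ end and beyond the end of the gene, with 9.68 pooled, 2.88 in replicate 1 and 5.89 in replicate 2. Extra copies of nhr-76 from the transgene, whose extent is not given in the sources used here, were not tested as a part of that value. Others were nhr-20, nhr-14 and nhr-25, an orthologue of the fly factor FTZ-F1 with a role in molting. GATA factor genes named 3 members (0.351%, 0.0725% to 1.02%), med-1 (9.98), elt-2 (8.52) and elt-3 (6.51). They named 2 weaker candidates (0.0516%, 0.00625% to 0.186%), and the intervals overlap. elt-2 directs intestinal development. Chemoreceptor genes named 22 members (2.58%, 1.62% to 3.87%) against 4.96% (4.3% to 5.69%). Histone genes named 1 member (0.117%), at the linker histone gene his-24 with 11.4, against 0.0775% of weaker candidates.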

How the data were processed

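Per the deposited README files, the authors derived peaks and background for each replicate from its alignment and a control, did the same for the pooled alignments, and made a final list thresholded by the irreproducible discovery rate. The authors' signal value per peak and their −log10 of the q-value are deposited in these lists. 67 members share the highest −log10 q-value. The aligner, the peak caller and the thresholds were not given in the sources used here. Only the ce11 lists were used, with Ensembl release 115 gene models and the RefSeq sequence of WBcel235, in coordinates counted from 1.

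Members, gene lists, motifs and features were chosen with earlier results of these data known. Motifs were searched on both strands in windows reaching 100 bp to either side of a summit. Copies in the genome were found with BLAST 2.17.0. Fisher's exact test, two-sided, came from SciPy 1.17.1 under Python 3.11.15, with p-values adjusted by Benjamini-Hochberg over 20 features in each comparison (the plan counted 19 and listed 20). The procedure was tested on simulated data in which peaks and features were drawn independently. That test does not cover the dependence between real peaks. Replicates share 1 group, so no conditions were compared, and an overlap of 1 bp counted as listed. Named members are the 20 strongest, all on the final list, the 10 strongest near other noncoding genes, the 5 with most copies and 3 on each side of the threshold. Other genes were named after their values were seen. Alternatives were other signals, distances and windows, a GC band, thinned peaks, and each replicate alone at the signal that leaves 6558 candidates. X alone, autosomes alone and members with no gene within 500 bp were chosen after seeing the data.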

Additional observations from a re-analysis of the deposited data

How the results depend on the processing

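At a signal of 8 or more there were 290 members, 104 listed in replicate 1 and 282 in replicate 2, and at 10 or more there were 110, 55 and 108. Of all nuclear candidates, replicate 1 listed 16.7% and replicate 2 listed 69.2%. The pooled signal holds the same reads, so nothing is read from these counts. The GC band of 30% to 40% held 386 members. Of the 4 features called against weaker distal candidates, 2 were called at 2000 bp from a 5′ end, 0 in the GC band and 2 on X alone. Without 1 replicate the count ran from 0 to 4. The 0 came without replicate 2, where only 162 weaker candidates remained and the odds ratio for pseudogenes reversed to 1.10, from 0.68 without replicate 1. Against promoters, 4 features were called, 2 in the GC band, 1 on X alone and 2 on the autosomes alone, and 4 to 5 without 1 replicate. The odds ratio for tandem repeats reversed to 0.93 in the GC band and 0.88 on X alone. Against introns, 1 was called, 0 at a signal of 10 or more, 2 at 1000 bp from noncoding genes, 0 on X alone and 0 on the autosomes alone, and 1 to 2 without 1 replicate. The 1 called against introns was pseudogenes. That call, and the one for pseudogenes against promoters, is partly set by how the classes were chosen. X and autosomes alone test fewer features, without chromosome, arms and neighbouring genes. The feature of a GC content of 40% or more could not be called in the GC band, because the band itself sets GC content. Elsewhere the cause was not tested. Of 595 pairs of an uncalled feature and an alternative, 583 kept their side of the threshold, 12 passed it and 0 reversed past it. Read numbers are unknown, so no limit of depth can be given. No paired analysis was possible because there is 1 group.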
